A study of Gallus gallus with 9 samples.

Results

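Partly methylated regions of chicken sperm DNA, with a mean methylation of 20 to under 40 percent over 9 birds, made up 641 of the 6428 regions that the study's region search listed (9.97%). They were selected on that measured mean, so their level describes the choice and is not a result. What the choice left free was how the 9 birds lay around the mean, whether the groups differed, and where the regions lie. Methylation was read by RRBS (reduced representation bisulfite sequencing), which gives the methylated share of cytosines in CpG-rich DNA. The F0EHC group held 4 Cobb broiler males hatched from eggs that underwent embryonic heat conditioning (EHC), with 12 hours of warming to 39.5 °C each day between embryonic days 7 and 16 at a humidity of 65%. The F0C group held 5 Cobb males from eggs under the standard incubation (37.8 °C, humidity 56%). All were first-generation birds raised to maturity, each library is the sperm of 1 bird, and no RNA was measured, so the labelled cell type could not be checked against marker genes.

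In vertebrate DNA a methyl group sits mainly on the cytosine of CpG pairs, and each copy of a CpG is either methylated or not. A region that is part methylated in bulk sperm is therefore a mixture of methylated and unmethylated copies, within a bird, between the chromosome copies of a bird, or along the region. In a sperm sample a level at the middle of the scale can be shared by all males, or arise because some males are low and others high, and only values for each male separate these patterns. CpG-rich promoters are typically unmethylated in sperm, and most other CpGs are methylated.

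The chosen band lay in the trough of the level distribution. Of all listed regions 1190 had a mean under 5 percent and 1104 had a mean of 50 to under 55 percent. The band itself held 123 to 187 regions in each step of 5 points, and the 123 regions of 30 to under 35 percent were the fewest of any such step under 70 percent. Just inside the lower bound lay regions on chromosome 17 and chromosome 19 with means of 20.02 and 20.06 percent, and just outside it regions on chromosome 15 and chromosome 7 with 19.99 percent each. Just inside the upper bound lay regions on chromosome 18 and chromosome 3 with 39.93 and 39.99 percent, and just outside it regions on chromosome 19 and chromosome 2 with 40.02 and 40.03 percent.

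**Figure D1:**
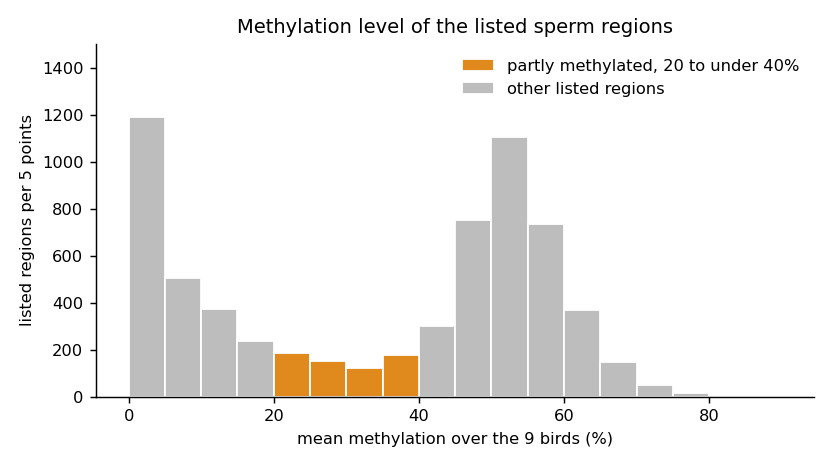
Number of listed regions (vertical axis) by mean methylation over the 9 birds (horizontal axis, percent, steps of 5 points), with the partly methylated regions in orange and all others in grey. The orange bars hold 123 to 187 regions each, against 1190 in the lowest step and 1104 at 50 to under 55 percent.

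The birds of a region often lay far apart. Within a region the SD over the birds had a median of 8.00 points in the partly methylated regions, against 5.36 points over all listed regions, and the distance between the lowest and the highest bird had a median of 24.3 points, against 16.4 over all. For the neighbouring bands the median distance was 14.9 points at 5 to under 20 percent and 18.6 points at 40 to under 60 percent. A low mean limits how far birds can lie apart, and no test was made of these differences. Of the 5767 bird values in the partly methylated regions, 62.8% lay at 20 to under 40 percent themselves. Another 15.3% lay at 10 to under 20, 4.01% under 10, 13.6% at 40 to under 50, 3.59% at 50 to under 60 and 0.624% at 60 percent or more.

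Regions were sorted by how their birds lay. A region was called even where all birds lay within 20 points, split where at least 1 bird was under 10 percent and at least 1 was at 50 percent or more, and graded otherwise. By these limits 215 regions (33.5%) were even, 359 (56.0%) graded and 67 (10.5%) split. Over all listed regions 66.8% were even and 1.66% split, and of the 5787 regions outside the band 40 were split (0.691%). The 67 split regions were thus most of the 107 in the whole table. In the neighbouring bands 23 regions at 5 to under 20 percent (2.06%) and 16 at 40 to under 60 percent (0.554%) were split. The limits of 10 and 50 percent lie on either side of the band, so the definition itself favours regions with a mean between them. Median bird extremes were 21.7 and 36.7 percent in even regions, 14.7 and 45.6 percent in graded regions, and 5.31 and 55.6 percent in split regions.

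**Figure D2:**
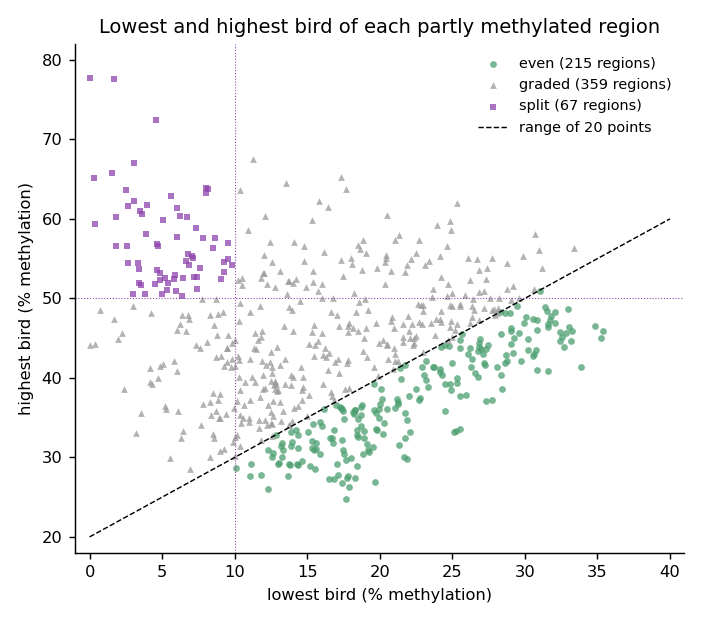
Lowest bird (horizontal axis, percent methylation) against highest bird (vertical axis, percent methylation) for each of the 641 regions, with green circles for even, grey triangles for graded and purple squares for split regions. The dashed line marks a range of 20 points and the dotted lines mark 10 and 50 percent. Median ranges were 15.5 points in even, 27.5 in graded and 48.9 in split regions.

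The even regions show the band at its plainest, with all males intermediate. The even region with the smallest SD lay on an unplaced contig (44 bp, gene ENSGALG00000034578) and had 22.6, 24.8, 22.1 and 17.6 percent in F0EHC sperm, against 20.05, 18.7, 18.1, 19.4 and 20.7 percent in F0C sperm. Its whole range was 7.16 points, and the groups overlapped. The second, at chromosome 25, 2644668 to 2644792 (ENSGALG00000028119), had 24.3, 26.1, 20.8 and 26.9 percent in F0EHC sperm and 19.7, 20.6, 21.0, 22.2 and 22.3 percent in F0C sperm, a range of 7.23 points. The third, on an unplaced contig (346 bp, ENSGALG00000037601), ranged over 7.50 points around 36.6 percent, and the fourth, on a contig assigned to chromosome 3 (96 bp, without a gene ID), over 8.43 points around 22.4 percent.

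The fifth was annotated to FOS, a subunit of the AP-1 transcription factor that is induced early by many stimuli. At chromosome 5, 38260730 to 38260799, it had 22.7, 26.8, 23.4 and 24.3 percent in F0EHC sperm, against 20.5, 22.8, 20.4, 17.4 and 19.6 percent in F0C sperm. Only the lowest F0EHC value, 22.7 percent, fell below the highest F0C value, 22.8 percent, so the groups overlapped by a narrow margin. The difference of 4.18 ± 3.39 points (SE) had an adjusted p of 0.351 with limma.

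Split regions held males at both ends of the range and males between. The split region with the largest SD, 24 bp at chromosome 8, 28612626 to 28612649 (ENSGALG00000011094), had 31.8, 71.7, 4.50 and 25.8 percent in F0EHC sperm, against 77.6, 2.73, 1.69, 31.3 and 69.8 percent in F0C sperm. Its values lay at 3 levels, each with males of both groups. At chromosome Z, 76908425 to 76908466 (ENSGALG00000038738), F0EHC males had 29.3, 0.69, 77.7 and 23.5 percent, and the 4 F0C males with a value had 0, 1, 24.1 and 30.4 percent. On an unplaced contig (53 bp, ENSGALG00000045561) F0EHC males had 21.2, 31.6, 0.31 and 65.2 percent and F0C males 32.9, 23.3, 2.77, 63.1 and 1.12 percent.

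The split region at chromosome 1, 194435654 to 194435872 (ENSGALG00000034004), had 3.42, 63.7, 2.64 and 61.2 percent in F0EHC sperm and 21.5, 24.5, 2.48, 6.93 and 28.6 percent in F0C sperm. There the highest males were both F0EHC, and so were males among the lowest. At chromosome 25, 112 to 160 (ENSGALG00000029494), F0EHC males had 30.4, 3.59, 4.67 and 31.2 percent and F0C males 61.6, 57.0, 8.07, 2.62 and 8.33 percent, with the highest males both F0C. In none of these 5 regions did the groups separate, and the differences of group means, F0EHC minus F0C, of -10.1 to 18.9 points had adjusted p-values of 0.323 to 0.856 with limma.

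Which males were high in the split regions was spread over all 9. The number of split regions in which a male was at 50 percent or more was 12, 12, 12 and 17 for the F0EHC males, against 10, 15, 9, 13 and 11 for the F0C males. A male was under 10 percent in 11, 22, 16 and 6 split regions among F0EHC and in 17, 15, 19, 14 and 10 among F0C. F0EHC replicate 2 was low most often and F0EHC replicate 4 was low least often, so these extremes lay in 1 group. In 33 split regions 1 male was at 50 percent or more, in 24 regions 2 males and in 10 regions 3 males, and none had more.

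Some regions fell into distinct steps. After the values were seen, a step was defined as males within 10 points of each other, separated from the next step by a gap of at least 15 points. By that definition 7 partly methylated regions had 2 steps, 6 had 3 and 1 had 4, against 123, 15 and 1 over all listed regions. An example is 410 bp at chromosome 19, 4230204 to 4230613 (ENSGALG00000001926), with 26.6, 4.69, 25.8 and 53.9 percent in F0EHC sperm and 27.0, 54.6, 26.5, 56.6 and 25.7 percent in F0C sperm. Its 5 middle males lay between 25.7 and 27.0 percent, its 3 high males between 53.9 and 56.6 percent, and its 1 low male at 4.69 percent. Another, at chromosome 6, 22652243 to 22652395, was annotated to KCHIP2, which encodes a protein that binds voltage-gated potassium channels. It had 7.70, 7.41, 50.9 and 23.9 percent in F0EHC sperm and 30.0, 50.6, 30.3, 23.0 and 5.98 percent in F0C sperm, so that each step held males of both groups.

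Averaged over the regions, the groups lay close together. The mean over the 641 regions was 30.4, 31.0, 29.4 and 29.9 percent in the F0EHC libraries, against 29.5, 27.9, 29.4, 29.7 and 30.7 percent in the F0C libraries. The F0EHC group averaged 30.2% ± 0.690 (SD, n = 4), against 29.5% ± 1.03 (SD, n = 5) for the F0C group, a difference of 0.706 points. The libraries of both groups overlapped, and the difference over all listed regions was as small, at 0.691 points. Of the 641 regions 336 were higher in F0EHC and 305 lower, a share of 52.4% higher, against 56.0% over all listed regions. The median size of the difference, regardless of sign, was 6.42 points, against 4.55 points over all listed regions.

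No partly methylated region passed the test between groups. With limma fitted to all 6428 regions and Benjamini-Hochberg adjustment over all of them, 0 of 641 regions had an adjusted p under 0.05, and percent called over all listed regions was also 0. The smallest adjusted p was 0.256. At an unadjusted limma p under 0.05, 43 regions were higher in F0EHC (6.71%, against 12.9% of all listed regions) and 21 lower (3.28%, against 6.29%). Both shares lay below that of the whole table in this fit. Without the variance trend 126 of the 641 regions and 992 of all 6428 were under that limma p, so the share was then larger in the band. By the exact permutation test 94 regions (14.7%, against 21% of all listed regions) had an unadjusted p under 0.05, and the smallest adjusted p was 0.178. The listed regions were found by a search for differences between these same groups, so small unadjusted p-values are built into the table. The adjustment does not allow for that search.

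Large differences made up a larger share than in the whole table, and separated groups did not, without a test of either. A difference of group means of at least 10 points was found in 70 regions higher in F0EHC (10.9%, against 3.9% of all listed regions) and 55 lower (8.58%, against 2.91%). The F0EHC and F0C males did not overlap in 24 regions higher in F0EHC (3.74%, against 4.81%) and 15 lower (2.34%, against 2.99%). The limits of the patterns largely set how often a region differed by 10 points, since the range over all males includes the difference between groups. Among the 67 split regions 35 differed by at least 10 points (52.2%) and 1 had groups apart, whereas among the 215 even regions 3 differed by that much (1.40%) and 21 had groups apart. Of the graded regions 87 differed by at least 10 points (24.2%) and 17 had groups apart. The counts with groups apart were not set against all listed regions of each pattern. Whether groups were apart more often in any pattern was not tested.

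The smallest p belonged to a region of JMJD1C, which encodes a JmjC-domain protein of a family of histone demethylases. At chromosome 6, 7933574 to 7933709, it had 52.5, 20.7, 47.4 and 50.4 percent in F0EHC sperm, against 8.04, 6.45, 8.88, 9.83 and 17.0 percent in F0C sperm. All F0EHC males were above all F0C males, and 1 of them, replicate 2, lay much nearer to the F0C males than the other F0EHC males did. Group means were 42.7% ± 14.8 (SD, n = 4) and 10.03% ± 4.07 (SD, n = 5). The difference of 32.7 ± 6.18 points (SE) had an unadjusted p of 0.000178 and an adjusted p of 0.256 with limma. The exact permutation p was 0.00794, the smallest that 126 draws allow, and 0.178 after adjustment. Without F0EHC replicate 2, the male furthest from its group here, the difference was 40.1 points and its adjusted limma p 0.0111. The study's table of differing cytosines lists 23 sites inside this region, annotated as intron.

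A region of 41 bp at chromosome 27, 4360179 to 4360219 (ENSGALG00000026589, paired with the microRNA symbol gga-mir-6663), showed the same arrangement of males. It had 44.6, 12.9, 45.9 and 44.9 percent in F0EHC sperm, against 11.1, 6.65, 9.06 and 7.08 percent in F0C sperm, where replicate 3 had no value. Again F0EHC replicate 2 lay close to the F0C males, though still above them. The difference was 28.6 ± 6.96 points (SE, limma, adjusted p 0.256), and without F0EHC replicate 2 it was 36.7 points with an adjusted limma p of 0.0226. These were the only partly methylated regions to fall under an adjusted p of 0.05 in any setting run. Without F0EHC replicate 2, 3 of all listed regions did so. At JMJD1C and here the male left out was the F0EHC male furthest from its group, so these adjusted p-values are descriptive.

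Groups did not overlap in 3 more of the 6 regions higher in F0EHC with the smallest p. SNX24, which encodes a sorting nexin of membrane traffic, had a region at chromosome Z, 81277761 to 81277826, with 35.9, 39.0, 34.0 and 40.4 percent in F0EHC sperm, against 27.5, 11.9, 16.2, 13.6 and 19.7 percent in F0C sperm. The F0EHC males lay within 6.39 points of each other and the F0C males were more spread, and the difference was 19.5 ± 4.31 points (SE). A region of ZNF385C, which encodes a zinc finger protein, at chromosome 27, 5193835 to 5193920, had 53.4, 41.8, 48.4 and 43.1 percent in F0EHC sperm and 31.1, 35.6, 21.7, 22.6 and 35.2 percent in F0C sperm. The last, at chromosome 7, 27294956 to 27295050 (ENSGALG00000031244), had 48.1, 39.8, 49.3 and 51.6 percent in F0EHC sperm and 29.2, 34.4, 30.4, 38.2 and 33.7 percent in F0C sperm. At each of the 3 the adjusted limma p was 0.256. ENSGALG00000031244 had 3 listed regions, all in the band. In its other regions, within 27292339 to 27292528, F0EHC males had 10.4 to 33.9 percent and F0C males 15.1 to 38.5 percent. Those regions were lower on average in F0EHC, with overlapping groups.

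At VSTM2L, a gene for a protein with an immunoglobulin V-set domain, the groups overlapped. Its region of 304 bp at chromosome 20, 10617060 to 10617363, had 59.3, 38.5, 58.1 and 61.8 percent in F0EHC sperm, against 27.7, 35.5, 3.96, 25.6 and 45.9 percent in F0C sperm. F0EHC replicate 2 was below the highest F0C male, and F0C replicate 3 was far below all others. The difference of 26.7 ± 7.55 points (SE) had an adjusted limma p of 0.256.

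**Figure D3:**
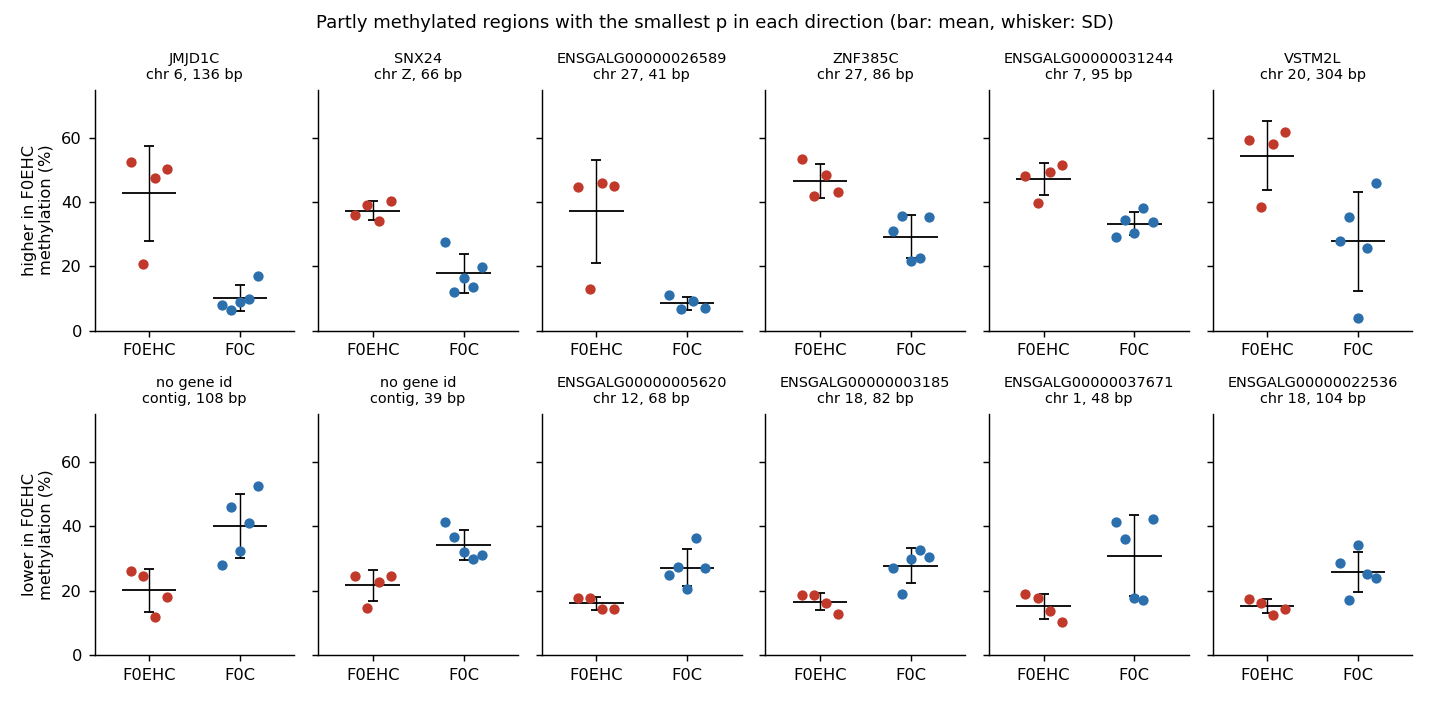
Methylation (vertical axis, percent) of each male in the 12 partly methylated regions with the smallest p in each direction, F0EHC males in red left of F0C males in blue, with the mean as a bar and the SD as whiskers. The upper row holds the 6 regions higher in F0EHC and the lower row the 6 lower. At JMJD1C and ENSGALG00000026589 the single low F0EHC male is replicate 2, at 20.7 and 12.9 percent.

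Among the regions with the smallest p, differences in the other direction reached lower sizes. These lists were picked by p and do not bound the size of the differences in the band. The 6 regions lower in F0EHC with the smallest p had differences, F0EHC minus F0C, of -19.96 to -10.7 points, against 14.01 to 32.7 points in the 6 that were higher. The first, 108 bp on an unplaced contig without a gene ID, had 26.2, 24.7, 11.8 and 17.9 percent in F0EHC sperm, against 28.1, 46.1, 32.4, 41.2 and 52.6 percent in F0C sperm. The groups did not overlap, with 1.98 points between the highest F0EHC and the lowest F0C male. The second, 39 bp on another contig without a gene ID, had 24.6, 14.6, 22.7 and 24.6 percent in F0EHC sperm and 41.4, 36.8, 32.0, 30.0 and 31.2 percent in F0C sperm, with its groups apart as well.

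At chromosome 12, 8716084 to 8716151 (ENSGALG00000005620), F0EHC males had 17.7, 17.7, 14.3 and 14.3 percent and F0C males 24.8, 27.3, 20.5, 36.5 and 26.9 percent. The F0EHC males were the more alike here, with an SD of 1.92 points, against 5.85 points in F0C. At chromosome 18, 6368513 to 6368594 (ENSGALG00000003185), F0EHC males had 18.6, 18.8, 16.2 and 12.8 percent and F0C males 27.0, 18.9, 29.8, 32.8 and 30.3 percent. Its groups did not overlap, but F0C replicate 2 lay just above the highest F0EHC male. Groups overlapped in the other regions of this list, at chromosome 1, 56860472 to 56860519 (ENSGALG00000037671), where F0C males had 41.2, 36.2, 17.9, 17.1 and 42.3 percent, and at chromosome 18, 9221498 to 9221601 (ENSGALG00000022536). All 6 had an adjusted limma p of 0.256.

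Neighbouring partly methylated regions shared their order of males. In 57 pairs both regions were partly methylated, adjacent in the list and at most 1 kb apart, and Pearson's r between their male-by-male values had a median of 0.857 over up to 9 males (range -0.57 to 0.987), with 38 pairs at 0.7 or more. At over 1 to 10 kb the median r was 0.19 in 25 pairs, at over 10 to 100 kb -0.0436 in 16 pairs, and at over 100 kb 0.18 in 10 pairs. Near pairs may share reads, CpG context and DNA fragments, and r is given as a description. In 43 of the 57 near pairs (75.4%) both regions differed between groups in the same direction. Where 1 region of a near pair was partly methylated and the other was under 20 percent, the median r was 0.50 in 110 pairs, and where the other was at 40 percent or more it was 0.27 in 90 pairs. Near pairs without a partly methylated region had a median r of 0.27 in 976 pairs. Males differed less outside the band, with a median SD over the birds of 5.15 points, against 8.00 points within it. The part of this spread in r was not tested.

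**Figure D4:**
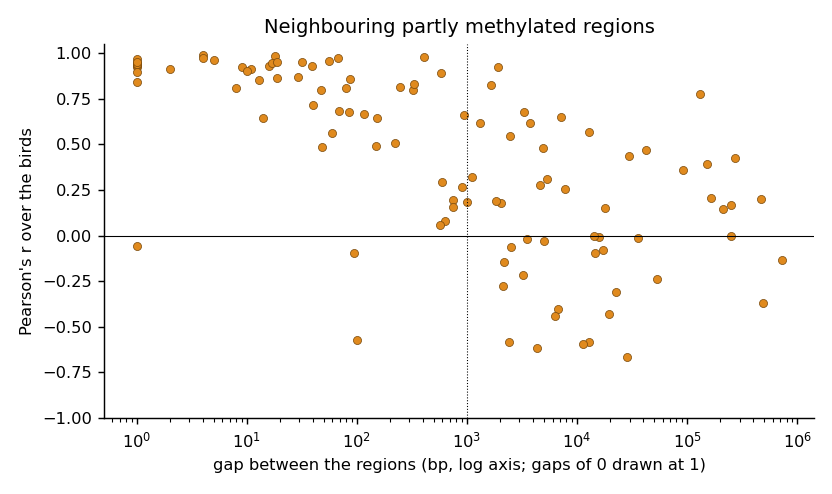
Pearson's r over the males (vertical axis) against the gap between adjacent listed regions that are both partly methylated (horizontal axis, bp, log axis), 1 point per pair. The dotted line marks 1 kb, and 38 of the 57 pairs at or left of it have an r of 0.7 or more.

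Since near regions move together, the 641 regions are not 641 separate observations. Joined at gaps of up to 1 kb they formed 580 loci, of which 52 held more than 1 region, 113 regions in all. Of the 641 regions 264 (41.2%) had any other listed region within 1 kb, against 32.3% of all listed regions. For 90 of these the near regions included 1 under 20 percent and none at 40 percent or more, for 73 the reverse, and for 14 there was 1 of each kind. Near regions were solely partly methylated for 87.

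The longest run lay at KLF2, a Krüppel-like transcription factor known from endothelial and T cells. It had 5 of its 6 listed regions in the band, between 4399415 and 4400844 of chromosome 28. The first, of 135 bp, had 25.9, 27.99, 56.8 and 63.6 percent in F0EHC sperm, against 10.4, 47.2, 54.6, 29.9 and 27.4 percent in F0C sperm. The fourth, of 318 bp, had 25.4, 24.1, 47.5 and 40.7 percent in F0EHC sperm and 3.86, 44.9, 58.1, 25.002 and 22.7 percent in F0C sperm. F0EHC replicates 3 and 4 and F0C replicates 2 and 3 were the 4 highest males in all 5 regions and F0C replicate 1 was the lowest, with r between adjacent regions of at least 0.892. Differences of 3.48 to 9.67 points higher in F0EHC had adjusted limma p-values of 0.381 to 0.724. The sixth listed region, of 50 bp from 4408065 to 4408114, averaged 58.6 percent, and there F0C replicate 1 had 54.9 percent and was not the lowest.

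A second run of 4 regions lay within chromosome 12, 2563604 to 2563952 (ENSGALG00000003103, 4 of 7 listed regions). One of its regions, 56 bp from 2563870 to 2563925, had 55.6, 3.45, 10.02 and 30.9 percent in F0EHC sperm, against 20.2, 24.3, 61.0, 3.90 and 55.3 percent in F0C sperm. In all 4 regions F0EHC replicate 1 with F0C replicates 3 and 5 were the highest, and F0EHC replicates 2 and 3 with F0C replicate 4 the lowest, with r between adjacent regions of at least 0.954. Both groups thus had males at each level, and the differences, F0EHC minus F0C, were -11.0 to -3.58 points, with adjusted limma p-values of 0.398 to 0.751.

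**Figure D5:**
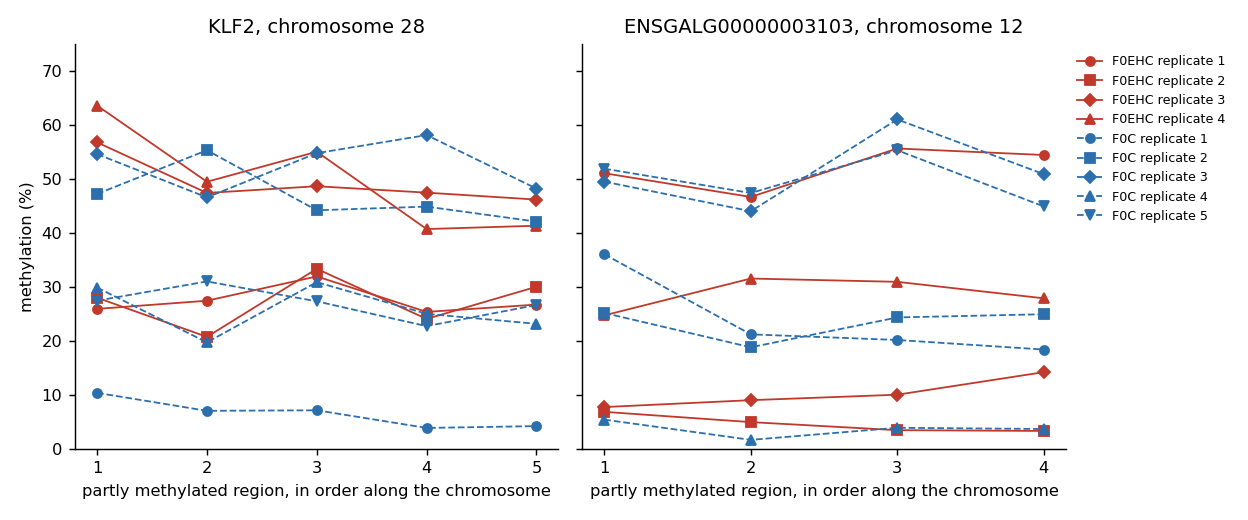
Methylation (vertical axis, percent) of each male across the 5 partly methylated regions of KLF2 and the 4 of ENSGALG00000003103 (horizontal axis, regions in order along the chromosome), with F0EHC males in red solid lines and F0C males in blue dashed lines. Males largely keep their order along each run, while their levels shift. At KLF2, F0C replicate 1 is lowest throughout, at 3.86 to 10.4 percent, and F0EHC replicate 4 lies at 40.7 to 63.6 percent.

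All 4 listed regions of ENSGALG00000032895, within chromosome 25, 2196377 to 2197344, were in the band, all of them graded. SLC4A2, which encodes an anion exchanger, had 4 of 5, in separate pairs on chromosome 2. In the pair at 307337 to 307601 both regions were split. The first had 28.9, 11.2, 62.8 and 32.3 percent in F0EHC sperm and 52.3, 13.4, 24.5, 19.8 and 5.64 percent in F0C sperm, and the second 34.5, 7.67, 55.4 and 29.9 percent in F0EHC sperm and 56.6, 12.4, 29.4, 20.6 and 2.58 percent in F0C sperm. In the pair at 286755 to 287176 both regions were graded and differed in opposite directions, by 6.25 and -5.05 points, F0EHC minus F0C. MACF1, which encodes a linker of microtubules and actin, had 3 of 13 listed regions in the band on chromosome 23. Of these the region at 5373653 to 5373938 had 43.6, 43.8, 38.3 and 41.0 percent in F0EHC sperm, against 36.2, 35.4, 26.8, 35.9 and 33.3 percent in F0C sperm, without overlap. Its difference of 8.17 ± 3.603 points (SE) had an adjusted limma p of 0.256. In the other MACF1 regions of the band the groups overlapped. Their differences, F0EHC minus F0C, were 3.78 and -3.81 points (adjusted limma p 0.378 and 0.594).

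Read counts were at hand for part of the band. The table of differing cytosines, which the study called with at least 8 reads in every library, placed 119 of its 1286 sites inside 39 of the 641 regions, and no depth was given for the regions themselves. Sites inside the regions had 9 to 116 reads in a library, with library medians of 33 to 45 reads. Of the 119 sites 118 differed in the same direction as their region, which the choice of sites favours, since they were called on the same groups. Intron held 42 of the sites (35.3%, against 34.4% of all listed sites), intergenic DNA 27 (22.7%, against 35.9%), exon 26 (21.8%, against 12.5%), the transcription end 13 (10.9%, against 3.73%) and the promoter 11 (9.24%, against 13.5%). A few regions carried these counts, with 23 of the 42 intron sites in the JMJD1C region alone.

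Pooled over the 23 sites of the JMJD1C region, 261 of 519 reads were methylated in F0EHC replicate 1 (50.3%, Wilson 95% interval 46.0 to 54.6) and 127 of 618 in replicate 2 (20.6%, 17.6 to 23.9), against 63 of 540 in F0C replicate 5 (11.7%, 9.23 to 14.6), the highest F0C male. As computed, the interval of F0EHC replicate 2 overlapped that of no other male. The intervals cover counting error only and treat reads at different sites as separate. Reads on neighbouring sites may come from 1 fragment, so the intervals may be too narrow. Their lack of overlap is a description, and the sites were called as differing between these same groups.

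The split region of TLR2A, which encodes a chicken form of toll-like receptor 2 that senses bacterial lipoproteins, held 8 listed sites. At chromosome 4, 20170004 to 20170246, the region had 3.59, 38.4, 3.39 and 24.1 percent in F0EHC sperm, against 51.4, 5.31, 28.6, 53.7 and 52.4 percent in F0C sperm. The 3 highest males were F0C and the 2 lowest F0EHC, and the groups overlapped. At the sites 3 of 384 reads were methylated in F0EHC replicate 3 (0.781%, 0.266 to 2.27), against 184 of 348 in F0C replicate 4 (52.9%, 47.6 to 58.1). These are males near the extremes of a region sorted by its extremes, and the intervals are given for the depth behind their values. The difference, F0EHC minus F0C, was -20.9 points (limma, unadjusted p 0.0688).

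GIPC3, a gene for a PDZ-domain protein, held 7 listed sites in a split region at chromosome 28, 1040329 to 1040415, annotated as promoter. The region had 12.6, 7.01, 30.6 and 3.43 percent in F0EHC sperm, against 13.0, 51.9, 27.8, 33.1 and 25.4 percent in F0C sperm. A split region annotated to GRN, which encodes the growth factor progranulin, at chromosome 27, 1731525 to 1731827, had 25.2, 3.04, 22.7 and 4.18 percent in F0EHC sperm and 27.1, 21.1, 27.2, 62.2 and 31.6 percent in F0C sperm. In both regions the highest male was F0C and the lowest F0EHC, with 1 or more F0EHC males inside the F0C range. The longest of the regions with several listed sites, 509 bp at chromosome 20, 10105386 to 10105894 (ENSGALG00000046425), held 22 sites and had 46.2, 35.9, 24.8 and 46.6 percent in F0EHC sperm and 47.9, 25.6, 6.80, 13.8 and 17.0 percent in F0C sperm.

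Other regions with a gene symbol are named after their values were seen, for their function. SOCS3, an inhibitor of cytokine signalling, had 40.1, 46.4, 32.9 and 26.5 percent in F0EHC sperm, against 17.0, 13.96, 17.0, 19.2 and 48.5 percent in F0C sperm. Of the F0C males only replicate 5 lay above the lowest F0EHC male, and at 48.5 percent it was the highest male of both groups. The difference was 13.4 points (limma, unadjusted p 0.0841). HSPB9, a small heat shock protein gene, had 45.6, 31.9, 31.5 and 11.9 percent in F0EHC sperm and 29.7, 28.3, 11.3, 2.26 and 21.6 percent in F0C sperm. CSF1, which encodes a macrophage growth factor, had 31.2, 52.0, 42.3 and 34.3 percent in F0EHC sperm and 24.6, 32.8, 42.8, 15.4 and 28.2 percent in F0C sperm.

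The groups of these last genes overlapped, whereas an even region of SPATA20, a gene named for its link to spermatogenesis, was separated. It had 32.6, 26.4, 27.2 and 27.8 percent in F0EHC sperm, against 18.5, 20.8, 18.8, 18.9 and 20.9 percent in F0C sperm, a difference of 8.90 points (limma, unadjusted p 0.0259). Its adjusted limma p was not under 0.05, as in every other region of the band. An even region of MSI2, a Musashi RNA-binding protein gene, was separated in the other direction, with 26.9, 30.4, 24.5 and 27.6 percent in F0EHC sperm and 44.2, 31.2, 36.2, 42.7 and 32.9 percent in F0C sperm. HYOU1, which encodes a chaperone of the endoplasmic reticulum, had adjacent split regions on chromosome 24. F0C replicate 3 was lowest there, at 3.04 and 9.29 percent, and F0EHC males ranged between 21.2 and 61.2 percent. The other F0C males ranged between 20.4 and 67.0 percent, and the groups overlapped in both regions.

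The region table carries an Ensembl gene ID for 619 of the 641 regions and 525 IDs in all, of which 449 had 1 partly methylated region and 76 had 2 or more. A gene symbol could be paired with 60 of the 525 IDs, so counts of named genes cover a small part of the band. How far a region lies from its assigned gene was not given in the sources used here. Among the gene lists examined, DAZL of the 10 germline genes, BAG3 of the 12 heat shock and chaperone genes and STAT3 of the 13 innate immune genes had a listed region, none of them in the band. An ID could be paired with 1 of the germline genes, 4 of the heat shock and chaperone genes and 6 of the innate immune genes, so the rest could not be looked up. The lookup used the symbols as listed, so the TLR2A region described above was not counted for TLR2. HSPB9 and HYOU1, also in the band, were not on the lists. None of the 8 DNA methylation enzymes could be paired with an ID, so nothing is known of these from the lookup.

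The regions were spread over the genome much as all listed regions were. Chromosomes 11 to 33, the smaller ones of the chicken, held 346 (54.0%, against 49.9% of all listed regions), chromosomes 1 to 5 held 111 (17.3%, against 21.6%) and chromosomes 6 to 10 held 86 (13.4% of both). On chromosomes 1 to 5, 46 regions were higher and 65 lower in F0EHC, on chromosomes 11 to 33, 180 and 166, and on unplaced or random contigs, 57 and 28. Over all listed regions 56.0% were higher, and their directions were not counted by chromosome class. Whether these splits are particular to the band is therefore not known. Chromosome 27 held the most, 35 of its 227 listed regions (15.4%), and of the 25 on chromosome 19 there were 7 split. Chromosome Z held 11, and 2 lay close together on the same contig assigned to chromosome W. Male birds do not carry chromosome W, and both regions on that contig had a value in every library.

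Regions in the band were longer than the table as a whole. Their median length was 93 bp (interquartile range 58 to 180, extremes 18 and 668), against 72 bp over all listed regions (50 to 127). Even regions had a median of 112 bp, and graded and split regions had a median of 84 bp each. A level averaged over a longer stretch rests on more cytosines, and the number of cytosines behind each region was not given, so the part of length in the spread between males was not tested.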

How the data were processed

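Sperm DNA of 4 F0EHC and 5 F0C males was read by paired-end RRBS. The authors trimmed reads with Trim Galore, mapped them to galGal5 with Bismark 0-22-3 (Bowtie), called sites with edgeR and regions with metilene 0.2-8. The deposited region table gives the mean methylation percent per region and library, with 31 control values missing, 2 of them in the regions described. The deposited site table gives methylated and unmethylated read counts without normalization, 58251 to 86529 per library, and the authors' percent from them. Columns of the authors' own comparisons (averages, differences, p-values) were not used. Regions with a mean of 20 to under 40 percent over the available libraries were kept. Starts are printed 1 base past those in the file, since listed sites sat there for 30 regions and at the start as given for 5. Sequences are not shown, as no genome of this build was used here.

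All 6428 regions were fitted with limma 3.58.1 (R 4.3.3, variance trend) on the percent scale and adjusted by Benjamini-Hochberg over all of them, and tested by a two-sided exact permutation over the 126 draws of 4 from 9 libraries (Python 3.11.15). The limma step was run on simulated data with normal noise of the same spread in every region. That checks the code and does not show how the test behaves on these data. Alternatives were the scale log2((percent + 1)/(101 - percent)), no trend, complete regions only, a replicate block, other cutoffs, choosing regions by the median or by the mean of group means, and each library left out. Regions named by rule are the 6 higher and 6 lower with the smallest limma p, and the 5 even with the smallest and 5 split with the largest SD. The rule also took those of the 5 gene IDs with the most regions (ties, as for MACF1 in the last place with 3 regions, by the lower ID), and 2 on each side of each bound. Regions given only for their steps, their listed sites or the function of a gene were named outside this rule. Symbols came from the study's pairing of Ensembl IDs with names, which covered 157 IDs directly. For an ID without such a pairing, the name the study gave to listed sites inside its regions was used, if there was only 1. Such symbols were inferred from position. The regions and lists were chosen with earlier results of these data known.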

Additional observations from a re-analysis of the deposited data

Results flagged for a closer look

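The groups of males looked at numbered 102, F0EHC and F0C in each of 50 regions and in the mean over the 641 regions. In 4 of them 1 male lay further from the rest than Dixon's 95% limit, where chance gives about 1 in 20. All 4 were F0EHC replicate 2. Some of the 50 regions are near neighbours and many were chosen by p or SD, so that rate is only a guide. In the JMJD1C region of chromosome 6 it had 20.7 percent, and the nearest F0EHC male 47.4. At ENSGALG00000026589 on chromosome 27 it had 12.9 percent, and the nearest F0EHC male 44.6. In the VSTM2L region of chromosome 20 it had 38.5 percent, and the nearest F0EHC male 58.1. At ENSGALG00000031263 on chromosome 19, just above the upper bound of the band, it was the high one, with 47.8 percent against 35.3 in the nearest F0EHC male. Over the 641 partly methylated regions this male was the highest of all 9 in 103 regions and the lowest in 55.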

How the results depend on the processing

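Under the alternatives run, the count of partly methylated regions with an adjusted limma p under 0.05 stayed at 0 except without F0EHC replicate 2, where it was 2 (leaving out each library in turn gave 0 to 2): JMJD1C (40.1 points, adjusted p 0.0111) and ENSGALG00000026589 on chromosome 27 (36.7 points, adjusted p 0.0226). In that fit 3 of all listed regions were under the same limit. It left out the male flagged above as furthest from its group at JMJD1C and ENSGALG00000026589. The smallest adjusted limma p ranged between 0.0111 and 0.342 over the alternatives. The count at an unadjusted p was 64, 126 without the variance trend, 94 on the log ratio scale, 63 with the replicate block and 50 to 78 with a library left out. Over all listed regions the counts were 1236, 992, 1376, 716 and 1005 to 1252 in the same order. The share was thus larger in the band than in the whole table without the variance trend, and smaller in the other settings. Replicate numbers did not pair the males (correlations of same-numbered deviations of -0.056 to 0.070 over all listed regions and -0.077 to 0.198 over the partly methylated ones; over all regions 1 of 4 F0EHC males best with its own number). Regions with separated groups numbered 39, and 50 to 69 with a library left out, since fewer males separate more easily. Regions differing by at least 10 points numbered 125, and at least 131 with a library left out. The share higher in F0EHC was 52.1 to 53.0% over the same fits. Of the patterns, 67 regions were split at the limits used and 124 at under 15 and at least 45 percent, while 215 were even within 20 points, 93 within 15 and 332 within 25. With a library left out 57 to 64 were split and 233 to 248 even. Of the 12 differences named for their small p, 10 to 12 were past an unadjusted p of 0.05 with a library left out, which their choice on the same data favours. Read depth was not given for the regions, so precision within a region could be judged only at the 39 with listed sites.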
